A study of Rattus norvegicus with 10 samples.

Results

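The transcripts described here are those annotated to the light strand of rat mitochondrial DNA, taken as every feature that the deposited count tables place on the mitochondrial chromosome (MT) with a minus strand. They are 9 of 26404 listed features, namely the protein gene mt-nd6 and 8 tRNAs. Oligo-dT-selected RNA of the right cerebral cortex was sequenced from 10 fetuses of the Sprague Dawley rat, an outbred stock, at embryonic day 21. The dams of 5 fetuses had received oxytocin (100 mcg per kg, intravenously), a peptide hormone given to induce labour, and the dams of the other 5 an equal volume of saline. Each fetus came from its own dam, tissue was taken 24 h after dosing, and only RNA with an integrity number above 9.5 was sequenced. The comparison asks whether maternal oxytocin was followed by a different level of these transcripts in the fetal cortex. Since the tissue was bulk cortex, fewer cells of a type and less RNA per cell cannot be told apart.

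Mitochondrial DNA is transcribed from both strands into long precursors. The heavy-strand precursors give the rRNAs, most tRNAs and all protein-coding mRNAs except that of ND6, and the light-strand precursor gives ND6 and the remaining tRNAs, with long stretches of non-coding RNA between them. Excision of the tRNAs releases the RNAs that lie between them, so that tRNAs act as punctuation in the precursor. ND6 is a membrane subunit of respiratory complex I, the enzyme that passes electrons from NADH to ubiquinone. Mature tRNAs end in CCA and not in a long poly(A) tail, so oligo-dT libraries are not built to measure them, and the values below are reads assigned to the tRNA intervals. How completely oligo-dT selection captured mt-nd6 and the rRNAs was not tested either.

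On the coordinates of the files (build Rnor_5.0 per the submitters' processing notes), mt-nd6 (ENSRNOG00000029042) is a single interval of 519 bases at MT:13543-14061 on the minus strand. Its last coding bases overlap the end of mt-nd5, on the other strand, by 23 bases. On its other side it touches tRNA-Glu (ENSRNOG00000032997, MT:14062-14130), which is followed after 5 bases by mt-cytb on the plus strand. tRNA-Pro (ENSRNOG00000029145, MT:15348-15415) is the last feature listed on the chromosome. A cluster of 4 tRNAs lies between tRNA-Trp and mt-co1. It holds tRNA-Ala (ENSRNOG00000033932, MT:5010-5078), tRNA-Asn (ENSRNOG00000032609, MT:5081-5152), tRNA-Cys (ENSRNOG00000031333, MT:5185-5252) and tRNA-Tyr (ENSRNOG00000029954, MT:5256-5321), with a gap of 32 bases between tRNA-Asn and tRNA-Cys. tRNA-Ser(UCN) (ENSRNOG00000032882, MT:6865-6933) overlaps the end of mt-co1 by 3 bases, and tRNA-Gln (ENSRNOG00000033545, MT:3761-3831) overlaps tRNA-Ile by 3 bases. The tRNA intervals are 66 to 72 bases long. The sources used here do not state whether counting used strand or how reads in overlaps were treated, so reads from these intervals cannot be told apart from reads of antisense RNA made from the other strand.

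Assigned counts per library totalled 18723390 to 30404127 for oxytocin and 18555172 to 20776414 for saline. All 9 features passed the filter on low counts, and 0 of 9 had a library without a count. Oxytocin was set against saline over 14400 features with edgeR's quasi-likelihood test. At an adjusted p under 0.05 it called 0 of the 9 and 0 features in all (0.0%), with 527 of all features at an unadjusted p under 0.05. At an unadjusted p under 0.05, 3 of the 9 were higher after oxytocin (mt-nd6, tRNA-Glu and tRNA-Gln) and 0 were lower, beside 1.99% of all features higher and 1.67% lower (286 and 241, or 171 and 491 when scaled by library size alone). The fitted log2 fold change was above 0 for 6 of the 9, beside 48.4% of all features. The median log2 fold change was 0.14 over the 9 and -0.0028 over all features tested.

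mt-nd6 held nearly all light-strand counts and stood higher in every oxytocin library than in any saline library. Its level was 1107, 1164, 1074, 1057 and 1167 deposited CPM (counts per 1000000 assigned counts) in oxytocin replicates 1 to 5. In saline replicates 1 to 5 it was 914, 969, 946, 1043 and 995 CPM. The groups did not overlap, but oxytocin replicate 4, the lowest of its group, lay close to saline replicate 4, the highest of the other. The means were 1114 ± 50.7 CPM after oxytocin and 973 ± 49.0 CPM after saline (SD, n = 5 per group). The model estimated 0.22 ± 0.049 (SE) on the log2 scale, or 1.17-fold, and edgeR's quasi-likelihood test gave an adjusted p = 0.9999 (0.000553 unadjusted). That unadjusted p ranked 5 of 14400, and the plus-strand genes mt-nd2, mt-nd4 and mt-nd1 ranked 1, 2 and 4. DESeq2 gave the same size of change (0.22 on the log2 scale). It tested 20257 features, and its independent filtering kept 2193 of them in the adjustment. DESeq2 called 11 of these 2193 (0.502%), among them mt-nd6 with an adjusted p of 0.00357. Of those 11, 8 were mitochondrial features. Counts of mt-nd6 ran from 17994 to 33650 per library, and the coefficient of variation was 4.80% within groups against 0.681% from counting alone.

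**Figure D1:**
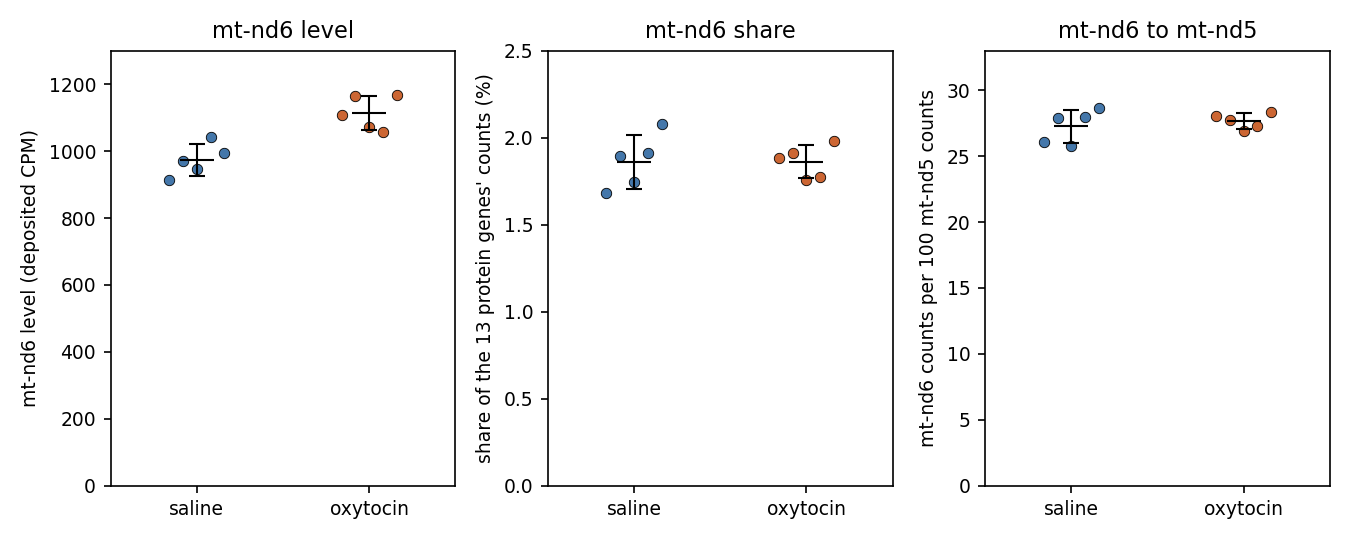
Points are the 5 libraries of each group, with the mean and SD as bars; the y axes give, from left to right, the mt-nd6 level in CPM, its share of the counts of the 13 mitochondrial protein genes in percent, and its counts per 100 mt-nd5 counts. The level separates the groups (lowest oxytocin library 1057 CPM, highest saline library 1043 CPM), whereas the share and the ratio overlap.

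Relative to the protein genes of the heavy strand, mt-nd6 showed no detectable difference between the groups. Among the counts of mt-nd6 and the 12 plus-strand protein genes together, it took 1.86% ± 0.0933 with oxytocin against 1.86% ± 0.156 with saline (SD, n = 5 per group). Single libraries ranged from 1.76% to 1.98% after oxytocin and from 1.68% to 2.08% after saline, so the saline libraries enclosed the oxytocin libraries. The log2 ratio of mt-nd6 to the sum of the 12 was 0.0028 higher with oxytocin (exact two-sided permutation test, n = 5 each, p = 0.960, adjusted p = 0.976 over 3 ratios). The 95% interval of that difference, from inverting the same test, ran from 0.911-fold to 1.12-fold. The 12 genes themselves were higher after oxytocin, from 0.17 (mt-co3) to 0.36 (mt-nd2) on the log2 scale, with a median of 0.22. In edgeR's quasi-likelihood test 12 of 12 were higher at an unadjusted p under 0.05, beside 1.99% of all features. In that test 0 of the 12 passed an adjusted p of 0.05.

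The ratios of mt-nd6 to its neighbours also overlapped between the groups. The mt-nd6 interval may hold reads of antisense RNA from the other strand. Neither these ratios nor the share above can therefore decide the balance between the strands. mt-nd5, the complex I gene whose end mt-nd6 overlaps, was at 4024 ± 131 CPM after oxytocin and 3570 ± 121 CPM after saline (SD, n = 5 per group). Per 100 counts of mt-nd5 there were 28.1, 27.8, 26.9, 27.3 and 28.3 counts of mt-nd6 in the oxytocin libraries and 26.1, 27.9, 25.8, 27.9 and 28.6 in the saline libraries. The ratio varied little among the 10 fetuses, and saline replicates 1 and 3 were the lowest. Its log2 difference was 0.022 (exact two-sided permutation test, n = 5 each, p = 0.508, adjusted p = 0.976 over 3 ratios), with a 95% interval from 0.965-fold to 1.08-fold. Per 100 counts of mt-cytb, the complex III gene on the other side, there were 16.7 ± 0.791 counts of mt-nd6 after oxytocin and 16.8 ± 1.51 after saline (SD, n = 5 per group). This log2 difference was -0.0041 (exact two-sided permutation test, n = 5 each, p = 0.976, adjusted p = 0.976 over 3 ratios), with a 95% interval from 0.897-fold to 1.11-fold. The 12S and 16S rRNAs, the ribosomal RNAs of the heavy strand, had log2 fold changes of -0.0082 ± 0.12 and -0.054 ± 0.089 (SE). With their sum as the denominator the log2 ratio of mt-nd6 was 0.25 higher after oxytocin (exact two-sided permutation test, n = 5 each, p = 0.103, no adjustment).

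Across the 10 libraries, mt-nd5 was the mitochondrial feature whose log2 CPM followed mt-nd6 most closely (Pearson r = 0.931, Spearman rho = 0.879), ahead of mt-nd4 (r = 0.856, rho = 0.867) and mt-nd1 (r = 0.853, rho = 0.842). These correlations describe 10 points that share their scaling factors and contain the difference between the groups. Without the 2 libraries farthest from the median mt-nd6 level, r was 0.915, 0.827 and 0.873 in the same order. With each group's mean subtracted, r was 0.701 for mt-nd5, 0.298 for mt-nd4 and 0.400 for mt-nd1. Per length, mt-nd6 and mt-nd5 also had nearly the same level, 2011 ± 169 and 2075 ± 146 deposited RPKM (CPM per kilobase of feature; SD, n = 10). Reads of heavy-strand RNA over the mt-nd6 interval cannot be told apart from reads of mt-nd6 itself. Neither this likeness of level nor the correlations can therefore be assigned to a strand. In RPKM mt-nd6 ranked from 11 to 13 among the 13 mitochondrial protein genes, depending on the library.

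**Figure D2:**
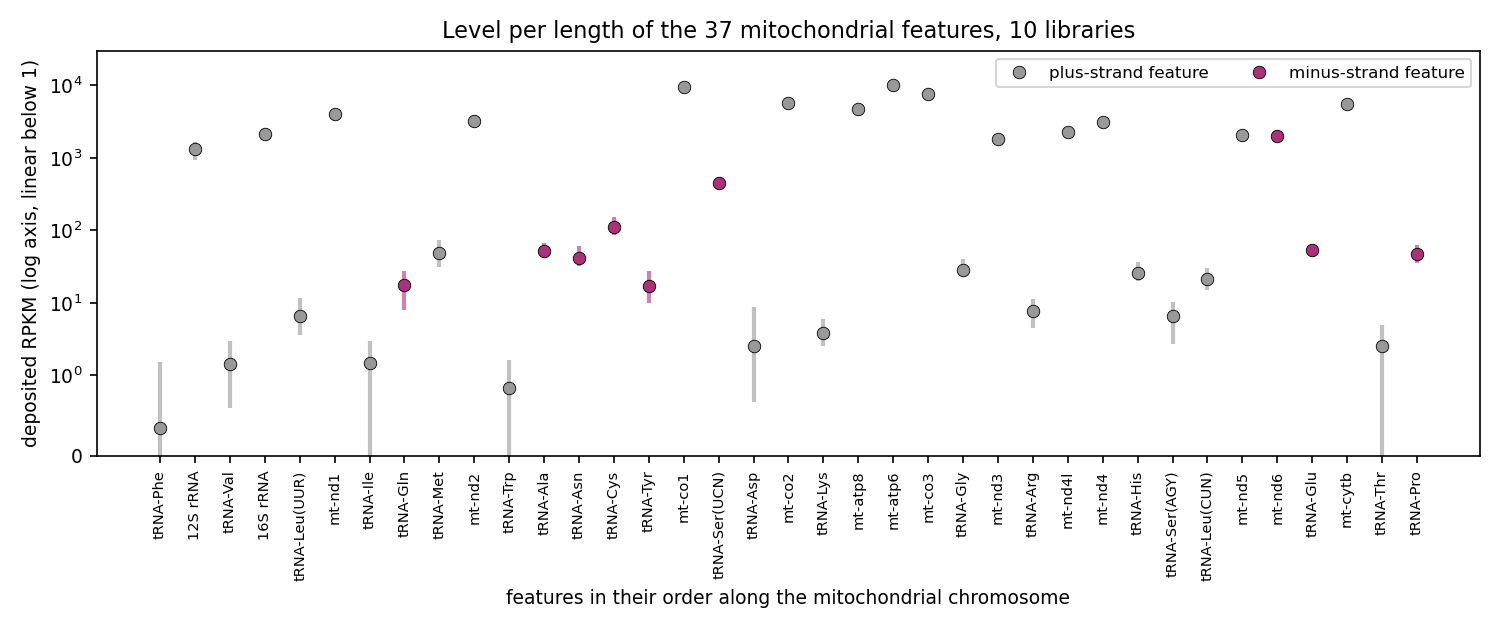
Each point is the mean deposited RPKM of a mitochondrial feature over 10 libraries on a log axis (linear below 1), the line spans the lowest to the highest library, and features follow their order along the chromosome. mt-nd6 stands level with mt-nd5, and the minus-strand tRNAs, from 17.0 to 446.8 RPKM, lie above most plus-strand tRNAs.

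The light-strand tRNAs were far below mt-nd6 per length, and they spanned a wide range. tRNA-Ser(UCN), the serine tRNA next to mt-co1, was the highest at 446.8 ± 57.7 RPKM (SD, n = 10). tRNA-Cys followed at 111 ± 20.6 RPKM. In all 10 libraries the order mt-nd6, tRNA-Ser(UCN), tRNA-Cys and the rest held. tRNA-Glu (52.7 ± 6.85 RPKM), tRNA-Ala (52.4 ± 9.12 RPKM), tRNA-Pro (47.1 ± 8.46 RPKM) and tRNA-Asn (42.1 ± 8.16 RPKM) formed a middle group in which each exceeded the next in only 6 of 10 libraries. tRNA-Gln (17.7 ± 5.55 RPKM) and tRNA-Tyr (17.0 ± 4.88 RPKM) were the lowest, and tRNA-Gln exceeded tRNA-Tyr in 5 of 10 libraries. The middle and lowest neighbours thus did not differ beyond their spread, except that tRNA-Asn exceeded tRNA-Gln in all 10 libraries.

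More reads were assigned to the intervals of the 8 minus-strand tRNAs than to those of the 14 plus-strand tRNAs. Reads of longer RNA or of antisense RNA may be among them. The counts therefore cannot say whether the tRNAs of either strand were more abundant. The summed counts were 899 to 1743 against 165 to 340 per library. The ratio of the sums was 4.99 ± 0.625 with oxytocin against 5.10 ± 0.501 with saline (SD, n = 5 per group), and the groups overlapped. The median RPKM of the minus-strand tRNAs was higher in 10 of 10 libraries, from 42.2 to 56.1 against 2.80 to 7.10 for the plus-strand tRNAs. tRNA-Ser(UCN) alone made up 50.7% to 61.4% of the minus-strand tRNA counts. tRNA-Cys and tRNA-Ser(UCN) exceeded each of the 14 plus-strand tRNAs in every library, and tRNA-Ala, tRNA-Asn, tRNA-Glu and tRNA-Pro exceeded 13 of the 14. The exception for these was tRNA-Met, at 48.7 ± 14.5 RPKM (SD, n = 10), which lies between tRNA-Gln and mt-nd2. Of the 14 plus-strand tRNAs, 8 averaged under 10 counts per library and 6 passed the filter on low counts.

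tRNA-Glu and tRNA-Gln, which were higher at the unadjusted threshold, rested on few reads. tRNA-Glu, which lies directly beside mt-nd6, had 134, 97, 90, 81 and 64 counts in oxytocin replicates 1 to 5 and 65, 76, 61, 65 and 55 in saline replicates 1 to 5. In CPM these were 4.41, 3.90, 4.05, 4.12 and 3.42 after oxytocin against 3.30, 3.66, 3.09, 3.48 and 2.96 after saline. Oxytocin replicate 5 lay within the saline range and the other 4 above it. Its log2 fold change of 0.31 ± 0.11 (SE) had an adjusted p = 0.9999 (0.0138 unadjusted) by edgeR's quasi-likelihood test. Per 1000 counts of mt-nd6 there were 3.59 ± 0.441 counts of tRNA-Glu after oxytocin and 3.39 ± 0.310 after saline (SD, n = 5 per group), and these ranges overlapped.

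tRNA-Gln had the highest fold change of the 9 and nearly the fewest reads. Its counts were 42, 32, 30, 29 and 37 in oxytocin replicates 1 to 5 and 11, 27, 25, 13 and 24 in saline replicates 1 to 5. Saline replicates 1 and 4 were the low ones, and the other 3 saline libraries lay close under the oxytocin libraries. The exact Poisson 95% interval ran from 5.49 to 19.7 for the count of 11 and from 30.3 to 56.8 for the count of 42, covering counting error only. These are the lowest and highest raw counts, not scaled for depth. Saline replicate 1 had 19689446 assigned counts and oxytocin replicate 1 had 30404127, so the gap between the intervals is partly one of depth. On the TMM-scaled log2 CPM scale the groups did not overlap, the lowest oxytocin value being 0.48 and the highest saline value 0.46. By this criterion 2 of the 9, mt-nd6 and tRNA-Gln, stood wholly higher after oxytocin and 0 wholly lower, beside 0.375% and 0.326% of all features. Among the 12 plus-strand protein genes, 7 stood wholly higher and 0 wholly lower. In deposited CPM tRNA-Gln did overlap, with 1.29 in oxytocin replicate 2 and 1.30 in saline replicate 2. For its log2 fold change of 0.54 ± 0.23 (SE), edgeR's quasi-likelihood test gave an adjusted p = 0.9999 (0.0371 unadjusted). The unadjusted p was above 0.05 without oxytocin replicate 4 or 5 or without saline replicate 1 or 4, where the log2 fold change was 0.54, 0.44, 0.39 and 0.44 in that order.

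**Figure D3:**
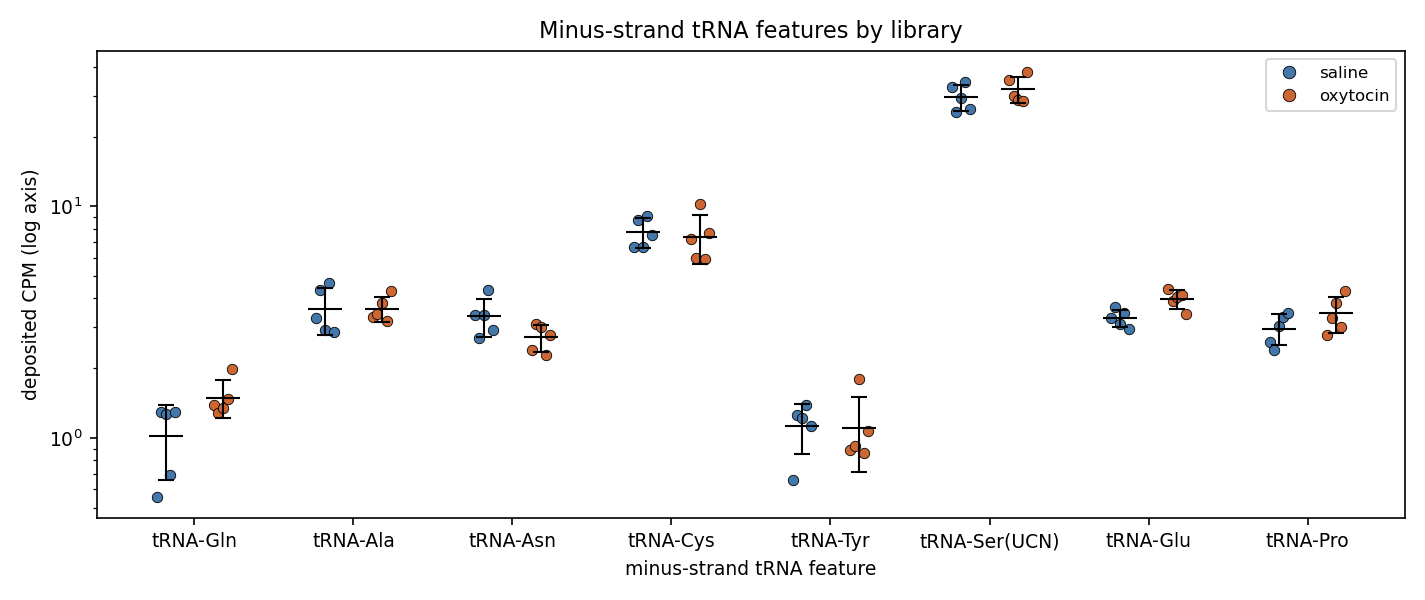
Points are the deposited CPM of each minus-strand tRNA in each library on a log axis, blue for saline and orange for oxytocin, with the mean and SD of 5 libraries as bars. tRNA-Glu and tRNA-Gln had the lowest unadjusted p of these, and the groups overlap in CPM for all 8 tRNAs.

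The other 6 tRNAs did not pass the unadjusted threshold. tRNA-Pro, at 3.45 ± 0.625 CPM after oxytocin and 2.96 ± 0.451 CPM after saline (SD, n = 5 per group), had a log2 fold change of 0.23 ± 0.15 (SE), or 0.14 without oxytocin replicate 5. tRNA-Ser(UCN), at 28.5 to 38.0 CPM in the oxytocin libraries and 25.6 to 34.3 CPM in the saline libraries, had 0.14 ± 0.10 (SE). Its value was 0.069 without oxytocin replicate 5 and 0.086 without saline replicate 2. Per 1000 counts of mt-co1, the complex IV gene it adjoins, there were 2.12 ± 0.381 counts of tRNA-Ser(UCN) after oxytocin and 2.16 ± 0.246 after saline (SD, n = 5 per group), and these ranges overlapped.

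None of the 4 clustered tRNAs passed either threshold, and their fold changes were close to 0 or below it. tRNA-Ala was at 0.015 ± 0.16 (SE; -0.011 when scaled by library size alone), tRNA-Tyr at -0.014 ± 0.26 (SE), tRNA-Cys at -0.042 ± 0.15 (SE) and tRNA-Asn at -0.27 ± 0.15 (SE) on the log2 scale. tRNA-Asn stood at 2.40, 3.10, 3.02, 2.29 and 2.78 CPM in oxytocin replicates 1 to 5 and at 3.40, 2.70, 3.39, 4.33 and 2.91 CPM in saline replicates 1 to 5. The groups overlapped, with saline replicate 4 the highest, and the unadjusted p was 0.0968 in edgeR's quasi-likelihood test. Without saline replicate 4 its log2 fold change was -0.16. Summed, the cluster was at 14.8 ± 2.59 CPM after oxytocin and 15.8 ± 2.36 CPM after saline (SD, n = 5 per group). In these 4 the spread within groups was 16.3% to 30.6% as a coefficient of variation, against 8.07% to 21.4% from counting alone.

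**Figure D4:**
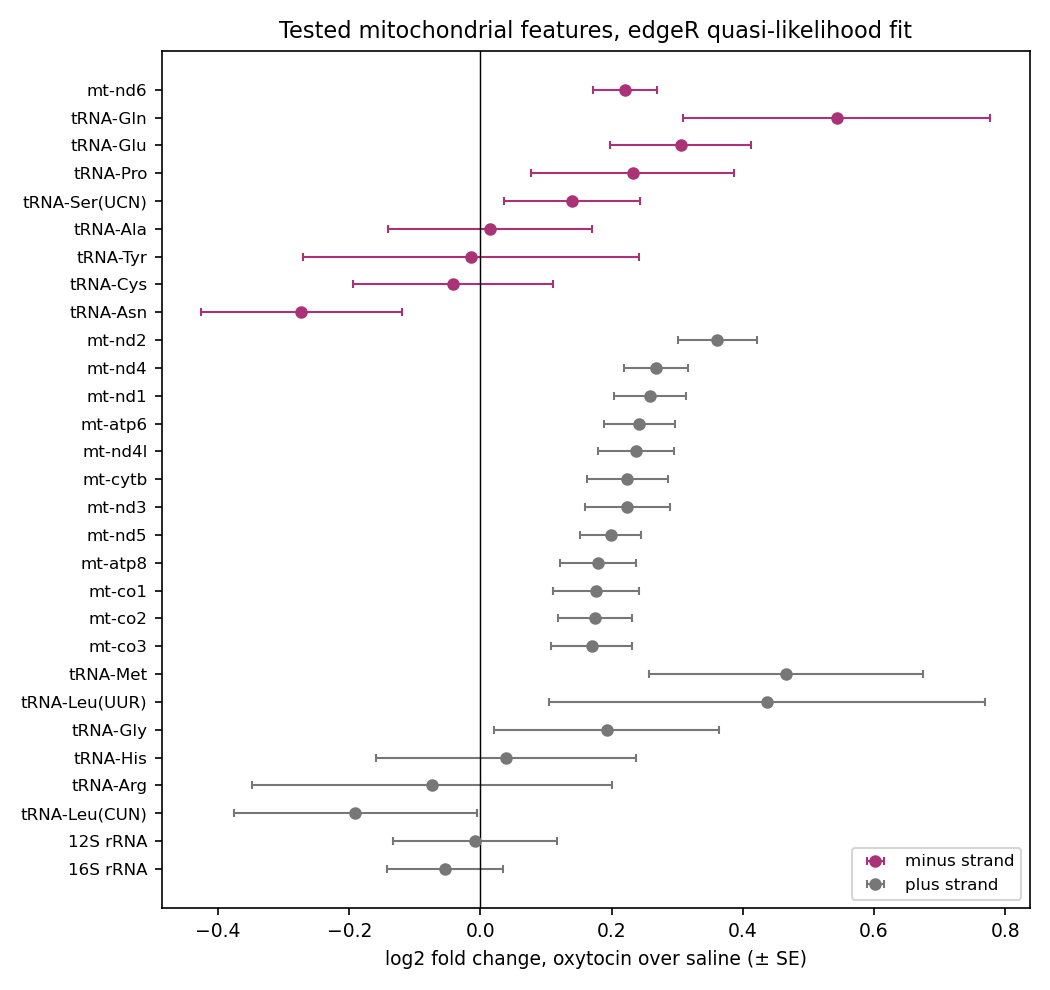
Points are log2 fold changes of oxytocin over saline with their SE for the 29 mitochondrial features that passed the filter, grouped by strand and kind. mt-nd6 (0.22) falls inside the range of the plus-strand protein genes (0.17 to 0.36), while tRNAs of both strands lie on both sides of 0 with wide errors.

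Summed over the 9 features, reads assigned to the light-strand intervals were higher in CPM in every oxytocin library than in any saline library. Most of that sum was mt-nd6. The 9 features together held 1164, 1216, 1131, 1106 and 1231 CPM in oxytocin replicates 1 to 5 and 967, 1019, 997, 1104 and 1044 CPM in saline replicates 1 to 5. The groups were separated by the gap between 1106 CPM in oxytocin replicate 4 and 1104 CPM in saline replicate 4. This separation was not particular to the 9 features. The 12 plus-strand protein genes summed to 57593 to 59961 CPM in the oxytocin libraries and 46877 to 53457 CPM in the saline libraries. mt-nd6 made up 95.2% ± 0.388 of the counts of the 9 features after oxytocin and 94.9% ± 0.387 after saline (SD, n = 5 per group). The 9 features made up 1.82% ± 0.0930 of all mitochondrial counts after oxytocin and 1.80% ± 0.157 after saline. The log2 ratio of their sum to the 12 plus-strand protein genes was -5.65 ± 0.075 and -5.65 ± 0.12 in the same order, with overlapping groups. Since reads of antisense RNA may be included, these values do not measure the light strand alone. The 8 tRNAs without mt-nd6 summed to 55.8 ± 5.47 CPM after oxytocin and 52.7 ± 5.05 CPM after saline (SD, n = 5 per group), also with overlap. The pattern of this tRNA sum over the 10 libraries was most like that of tRNA-His (Pearson r = 0.759, Spearman rho = 0.503), mt-nd4l (r = 0.700, rho = 0.697) and mt-nd1 (r = 0.682, rho = 0.636). Without the 2 libraries farthest from the median of the tRNA sum, r was 0.522, 0.757 and 0.812, and with group means subtracted it was 0.806, 0.712 and 0.770, over the same 10 libraries and shared scaling.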

How the data were processed

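The authors deposited 1 table per library with whole-number read counts per Ensembl feature, not normalized, and with CPM and RPKM. Per the file headers and values, CPM deposited by the authors is the count per 1000000 assigned counts and RPKM is that value per kilobase of listed length (largest deviations 4.18e-11 and 7.09e-11). Per the submitters' processing notes, bcl2fastq, STAR 2.0.4b, Subread and featureCounts 1.45 were used with build Rnor_5.0. Strand and multimapping settings are not given in the sources used here. The counting of reads in overlapping intervals, and of reads that also match nuclear copies of mitochondrial DNA, could therefore affect these values.

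Symbols are not given beside the identifiers, and the RefSeq gene table (GRCr8) matched 0 of 26404. The 37 MT features were named from the fixed mammalian gene order, whose strands matched 37 of 37. The lists of nuclear genes for mitochondrial RNA processing and of cell type markers were therefore not analysed here, and no sequence was printed.

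Counts were filtered with filterByExpr (14400 features) and scaled with TMM. The factors were 0.983 to 0.996 for oxytocin and 1.001 to 1.02 for saline, so they did not overlap between the groups. Testing used edgeR 4.0.16 in R 4.3.3 (glmQLFit with legacy set to false, glmQLFTest, Benjamini-Hochberg over all features, threshold 0.05). The SE is the log2 fold change over the square root of F. Log2 CPM used a prior count of 2, and 0.5 was added to each sum in the tRNA ratios. Ratios of mt-nd6 were tested over all 252 assignments of libraries, whose smallest two-sided p is 0.0079. Sums over the 9 features were given no test. The fits were tested on simulated counts, in which a larger share of DESeq2's calls than of edgeR's or limma's fell on features simulated with no difference. Those counts were drawn independently for each feature, with dispersions that edgeR estimated. They cannot tell whether DESeq2's call of mt-nd6 was false. Alternatives were DESeq2 1.42.0, limma 3.58.1 voom, other scalings and filters, edgeR's legacy mode, other denominators and leaving out each library. No 2 libraries of a group agreed within sampling noise (chi-square of 4.22 to 19.2 per degree of freedom over 20 pairs). Named features were all 9, their neighbours and the 3 closest in pattern. The members and lists were chosen with earlier results of these data known.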

Additional observations from a re-analysis of the deposited data

How the results depend on the processing

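No feature passed an adjusted p of 0.05 in edgeR or limma in 7 alternatives or without any single library, with 428 to 844 features at an unadjusted p under 0.05 in the latter. DESeq2 called 11 features, with 498 at an unadjusted p under 0.05, and for mt-nd6 it gave a log2 fold change of 0.22 with an adjusted p of 0.00357. The other fits gave mt-nd6 adjusted p from 0.547 to 0.9999, with log2 fold changes down to 0.19 and from 0.20 to 0.25 without each library. The cause of that difference between tests was not tested. No light-strand tRNA passed an adjusted p of 0.05 in any fit, but DESeq2's independent filtering gave the 8 tRNAs no adjusted p, and the stricter filter (mean of at least 50 counts) left out tRNA-Gln and tRNA-Tyr. At an unadjusted p under 0.05, mt-nd6 and tRNA-Glu were higher in 8 of 8 alternatives and without each of the 10 libraries, and tRNA-Gln without 6 of 10. tRNA-Asn was lower at that threshold without saline replicate 2.

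Scaling by library size alone gave 171 features higher and 491 lower at an unadjusted p under 0.05, against 286 and 241 with TMM, and it turned tRNA-Ala to -0.011. Differences near 0 turned sign without single libraries. Their ranges were -0.057 to 0.12 for tRNA-Ala, -0.18 to 0.026 for tRNA-Cys, -0.25 to 0.077 for tRNA-Tyr, -0.034 to 0.044 for the log2 ratio of mt-nd6 to the 12 protein genes and -0.044 to 0.040 for that to mt-cytb. With the mean log2 count of the 12 as the denominator, the difference was -0.0071. Depth was low for tRNA-Gln and tRNA-Tyr, with 11 to 42 and 13 to 40 counts per library, whereas for tRNA-Ser(UCN) and tRNA-Cys the spread within groups (13.0% and 19.7%) was well above that from counting (3.98% and 8.07%). No paired analysis was possible because the labels number no replicates: the numbers used here follow the order of the records within each group and tie no oxytocin library to a saline library.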

Other observations

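The ratio of tRNA-Gln to tRNA-Asn counts, chosen after their values were seen because these 2 had the highest and the lowest fold change of the 9, was 0.58, 0.42, 0.45, 0.64 and 0.71 in oxytocin replicates 1 to 5. In saline replicates 1 to 5 it was 0.16, 0.48, 0.37, 0.16 and 0.44. The groups overlapped, and saline replicates 1 and 4 had the lowest ratios. Both tRNAs lie on the same strand, on either side of mt-nd2 and its flanking tRNAs. Of the checks for a library apart from the other 4 of its group, 0 of 30 exceeded Dixon's 95% critical value.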
